A study of Drosophila melanogaster with 8 samples.

Results

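Cytosolic ribosomal protein genes encode the proteins of the ribosome that translates nuclear messages, and their transcripts were followed here in fly heads with and without a light pulse at night. Members were all genes whose symbol starts with RpL or RpS followed by a number, together with RpLP0, RpLP1, RpLP2 and sta. Each was represented by 1 probe set with a single gene symbol, the one with the highest mean over all arrays. This gave 40 of 12313 genes with such a probe set, 24 of the large subunit and 16 of the small one. RefSeq names 92 genes that meet the rule, and the other 52, among them sta, RpS3 and RpS6, were not analysed here.

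Heads of wild-type Canton-S flies were compared between 2 groups of 4 arrays each. All flies were 3 to 5 days old, lived at 25 °C and had been entrained for 4 days to 12 h of light and 12 h of darkness. Pulsed flies received saturating light for 30 min at ZT 15 (zeitgeber time, hours after lights on) and were frozen 1 h later, at ZT 16.5. Unpulsed controls were labelled with the same sampling time and no pulse. The labels give neither the sex nor the number of flies behind an array, nor do they say whether the arrays of a group stem from separate flies. The p-values therefore cover only array-to-array spread, which may be technical. In whole heads, fewer cells of a type and less RNA per cell cannot be told apart.

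A ribosome needs each of its proteins in about equal numbers, so their genes are regulated together, and in Drosophila the loss of 1 copy of many of them gives the Minute phenotype of slow growth and thin bristles. Their messages carry a pyrimidine tract at the 5′ end through which the growth kinase Tor controls their translation. Several fly ribosomal proteins are encoded by a pair of genes, one used in all tissues and one used mostly in the germ line. RpL32, under its older name rp49, is among the transcripts most often taken as a reference for fly RNA measurements.

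The values are the authors' log2 signals, 1 per probe set and array, with array medians from 2.95 to 3.07 over the tested probe sets. Probe sets of the same RNA amount differ in brightness, so a level is compared below only between arrays of 1 probe set. Eye, neuron and glia genes were read on all 8 arrays. Arr2, the arrestin of photoreceptors, lay from 14.69 to 15.01, the neuronal gene elav from 8.68 to 9.49 and the glial gene repo from 9.05 to 9.26. Not all markers were bright, with the neuronal genes brp from 3.65 to 4.11 and para from 2.89 to 4.29. Correlations between arrays ran from 0.985 to 0.998, and the lowest involved pulsed replicate 2. On that array 11 of 13 accessory gland genes, 10 of 20 testis genes and 7 of 13 midgut genes lay more than 1 log2 unit above every other array. Yolk protein transcripts were at a mean of 5.33 and 5.35 on pulsed replicates 3 and 4 and 5.13 on unpulsed replicate 1, against 10.40 to 11.92 on the other 5 arrays.

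In pulsed heads the transcripts of ribosomal proteins stood at nearly the level of unpulsed heads. Of the 40 genes, 0 passed limma's test at an adjusted p of 0.05 (smallest adjusted p = 0.766), as did 0% of all 18769 probe sets. In all, 35 differed by less than 0.1 log2 units in either direction. The 40 include 8 genes with means under 3, near the low end of the scale, where signal and background were not told apart. The widest difference belonged to RpL34a, at 1.2-fold, and 0 genes reached 1.5-fold. Few of all probe sets did either (219 of 18769), so this count does not set the family apart. The median difference over the 40 genes was 0.0065 log2 units, with 23 above 0 and 17 below, but -0.0067 with 19 above 0 when arrays were centred on their medians. That over all probe sets was -0.0031, with 7774 above and 10995 below. For 25 of the 32 genes with a mean of 9 or more, the 95% interval of the difference lay within 0.2 log2 units of 0, a 1.15-fold change, so that larger changes of these genes were outside the interval.

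At an unadjusted p under 0.05, 7 of 40 genes (17.5%) were on the higher side in pulsed heads and 0 on the lower side, where the shares over all probe sets were 2.40% higher and 2.41% lower. Bright probe sets had such values more often, with 7.79% higher and 5.20% lower among the 1886 with a mean of 9 or more that belong to no ribosomal protein gene. The 7 members were all among the 32 with such a mean, 21.9% of these. Without pulsed replicate 2 the count was 4 genes higher and 1 lower, and it was also 4 higher without pulsed replicate 1 or unpulsed replicate 2. In each of these fits the higher share over all probe sets fell too, to below 2.40%. The lower share was below 2.41% without pulsed replicate 2. The count of members was 0 in both directions with the RNA quality measure described further on as a covariate. The shares over all probe sets were then 0.852% higher and 1.75% lower. That measure and the group go together (1.63 to 1.79 pulsed, 1.77 to 2.01 unpulsed), so their parts cannot be told apart. The groups did not overlap for 3 genes, RpL3, RpL34a and RpS26, all with pulsed above unpulsed, against 1.30% of all probe sets, and for 0 genes with pulsed below, against 1.26%. All 3 are bright, 9.38% of the 32 members with a mean of 9 or more. Among the 1886 bright probe sets of other genes the shares were 4.72% above and 2.55% below. Leaving out an array cannot make separate groups overlap, so these 3 stayed above by construction and the counts could only stay or rise. There were 7 above without pulsed replicate 4 or without unpulsed replicate 3 (3.37% and 2.28% of all probe sets), and 5 without pulsed replicate 3 or without unpulsed replicate 4 (1.80% and 3.13%). Without unpulsed replicate 1, RpL39, RpL41 and RpS29 were below (4.07% of all). Just 1 gene was below without pulsed replicate 2, pulsed replicate 4 or unpulsed replicate 4 (1.43%, 2.04% and 2.93% of all probe sets).

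**Figure D1:**
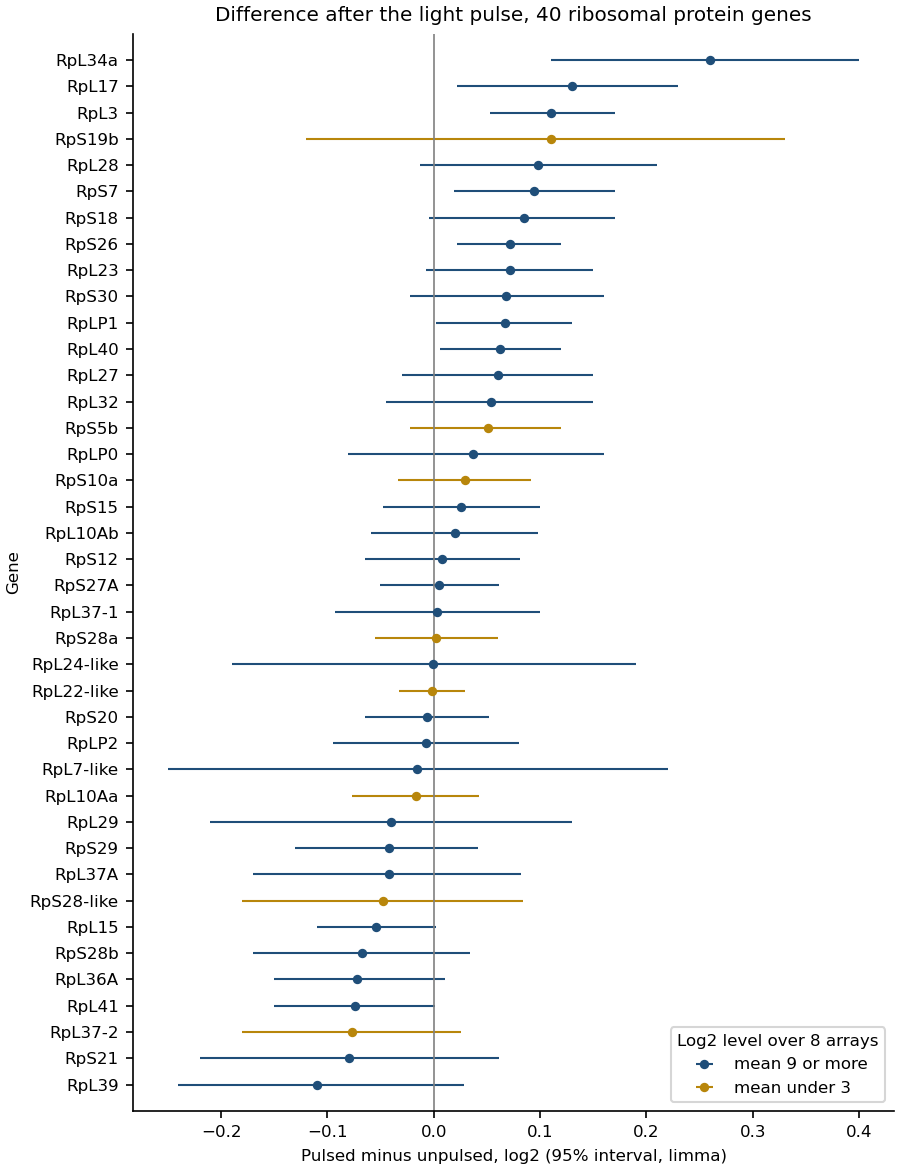
Pulsed minus unpulsed log2 difference (horizontal axis) of 40 ribosomal protein genes (vertical axis), with 95% intervals from limma, 4 arrays per group; blue genes have a mean of 9 or more over the arrays and ochre genes a mean under 3. The points run from -0.11 for RpL39 to 0.26 for RpL34a, and 7 intervals, all on the higher side, leave out 0.

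The stalk of the large subunit recruits the elongation factors, and is built of RpLP0 with the acidic proteins RpLP1 and RpLP2. RpLP0, its base, was at 14.19, 14.29, 14.25 and 14.13 in pulsed replicates 1 to 4 and at 14.11, 14.11, 14.24 and 14.25 in the unpulsed ones. The groups overlapped, with a difference of 0.037 (95% interval -0.081 to 0.16). RpLP1 was at 14.53, 14.61, 14.49 and 14.52 after the pulse and at 14.45, 14.45, 14.49 and 14.49 without it. Pulsed replicate 2 was its highest array and the difference was 0.067 (0.002 to 0.13, limma unadjusted p = 0.0454, adjusted p = 1.0), or 0.043 without that array. RpLP2 was at 14.03, 14.17, 14.08 and 14.03 in pulsed and at 14.06, 14.07, 14.14 and 14.07 in unpulsed heads, a difference of -0.007 (-0.095 to 0.080). Its 2 highest arrays were pulsed replicate 2 and unpulsed replicate 3, 1 in each group. RpL10Ab, the protein of the opposite, mobile L1 stalk, differed by 0.020 (-0.059 to 0.098).

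RpL3, whose protein reaches towards the peptidyl transferase centre, had the smallest p of the family. Its values were 13.36, 13.38, 13.40 and 13.32 in pulsed and 13.23, 13.21, 13.27 and 13.30 in unpulsed heads. All 4 pulsed arrays were above all unpulsed ones. The difference was 0.11 (SE 0.025, interval 0.053 to 0.17, limma unadjusted p = 0.00279, adjusted p = 0.766), and 0.078 with the RNA quality covariate. Its other probe sets went different ways, at 0.11 (-0.16 to 0.38) for one with a mean of 2.29 and -0.065 (-0.44 to 0.31) for one with a mean of 6.43.

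RpL17, which lines the exit tunnel for the nascent chain, was at 12.98, 13.04, 12.93 and 12.92 after the pulse and at 12.76, 12.80, 12.87 and 12.93 without it. Unpulsed replicate 4 reached into the pulsed range, and the difference was 0.13 (0.022 to 0.23, limma adjusted p = 0.965). RpL39, a small protein of the same tunnel, lay on the other side of 0, at 14.60, 14.72, 14.62 and 14.68 against 14.64, 14.74, 14.89 and 14.79. Its difference of -0.11 (-0.24 to 0.028) was the lowest of the family. It became -0.063 without unpulsed replicate 3, its highest array, and -0.0093 with the RNA quality covariate.

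RpL34a, of the large subunit, had the largest SD over the 8 arrays of all members (0.162), which includes its difference between groups. After removing group means its SD was 0.0923, below the 0.151 of RpL7-like. RpL34a was at 11.29, 11.43, 11.36 and 11.24 in pulsed and at 11.16, 10.94, 11.05 and 11.15 in unpulsed heads, so the groups did not overlap. The difference was 0.26 (SE 0.061, interval 0.11 to 0.40, limma unadjusted p = 0.00407, adjusted p = 0.805). It was 0.22 without pulsed replicate 2 and 0.10 with the RNA quality covariate. Its paralog RpL34b was not analysed here.

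On the path of the messenger and transfer RNAs, RpS26 sits where the message leaves the small subunit. Its values were 14.06, 14.13, 14.09 and 14.12 after the pulse and 14.05, 13.99, 14.05 and 14.04 without it, and the groups did not overlap. The difference was 0.072 (SE 0.021, interval 0.022 to 0.12, limma adjusted p = 0.870). RpS15, which reaches the decoding site, differed by 0.026 (-0.048 to 0.10), and RpS30, which is cut from a fusion with a ubiquitin-like protein, by 0.068 (-0.022 to 0.16). RpL36A, next to the exit site for transfer RNA, was at 14.29, 14.36, 14.28 and 14.26 against 14.36, 14.33, 14.46 and 14.34. Only pulsed replicate 2 overlapped the unpulsed arrays, and the difference was -0.072 (-0.15 to 0.011).

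RpL40 and RpS27A are made as fusions with ubiquitin, from which they are cut. RpL40 was at 13.57, 13.66, 13.62 and 13.61 in pulsed and at 13.56, 13.56, 13.51 and 13.57 in unpulsed heads. The groups touched at 13.57, with a difference of 0.062 (0.006 to 0.12, limma adjusted p = 0.987). It was 0.029 with the RNA quality covariate and 0.021 with quantile normalization. RpS27A had the smallest spread over the arrays among members with a mean of 9 or more, at 14.54, 14.57, 14.48 and 14.49 against 14.50, 14.50, 14.55 and 14.52. Its whole range over the 8 arrays was 0.08 log2 units and its difference was 0.005 (-0.051 to 0.061).

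Other proteins of the small subunit lay on both sides. RpS7 was at 13.68, 13.72, 13.64 and 13.57 after the pulse and at 13.56, 13.56, 13.58 and 13.53 without it, overlapping only through pulsed replicate 4. Its difference was 0.094 (0.019 to 0.17, limma adjusted p = 0.965). RpS18 followed at 0.085 (-0.004 to 0.17). RpS12 (0.008), RpS20 (-0.006) and RpS29 (-0.042) had differences under their SE or close to it, and RpS21 was at -0.080 (-0.22 to 0.061). A second bright probe set of RpS29, with a mean of 14.14, had an interval of -0.096 to 0.096, and dim second probe sets of RpS7 (mean 2.65) and RpS30 (mean 3.58) were both at 0.049. The RpS30 one stood at 3.75 on pulsed replicate 2 and between 3.54 and 3.57 elsewhere. RpS28b was at 14.60, 14.63, 14.61 and 14.50 against 14.64, 14.64, 14.74 and 14.58, a difference of -0.067 (-0.17 to 0.034).

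In the large subunit, RpL41, a very short peptide at the interface of the subunits, was at 15.17, 15.18, 15.15 and 15.19 in pulsed and at 15.18, 15.29, 15.31 and 15.21 in unpulsed heads. Only unpulsed replicate 1 lay within the pulsed range, and the difference was -0.074 (-0.15 to 0.001), which became 0.012 with the RNA quality covariate. RpL15 was at 14.97, 14.99, 14.99 and 15.03 against 15.02, 15.05, 15.10 and 15.02, a difference of -0.054 (-0.11 to 0.002). Both are among the brightest members, and the scale of a 16-bit scanner ends at 16, so whether their signals were compressed was not tested. RpL32, the reference transcript, was at 14.38, 14.44, 14.35 and 14.31 in pulsed and at 14.26, 14.29, 14.42 and 14.30 in unpulsed heads. It differed by 0.054 (-0.045 to 0.15), and only unpulsed replicate 3 lay within the pulsed range. RpL23 (0.072), RpL27 (0.060) and RpL28 (0.098) had intervals that held 0, as did RpL29 (-0.040) and RpL37A (-0.042).

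Arrays of a group differed from each other in a way that many of the genes shared. Among the 32 genes with a mean of 9 or more, pulsed replicate 2 held the highest of the 4 pulsed values for 26, and pulsed replicate 4 the lowest for 19. In the unpulsed group replicate 3 was highest for 23 genes and replicate 1 lowest for 13. For 30 of the 32 genes the highest of all 8 values was on one or the other of those 2 top arrays. Among all 1919 probe sets with a mean of 9 or more the corresponding shares were 31.9% highest on pulsed replicate 2 and 35.7% on unpulsed replicate 3. Among the 180 with a mean of 13 or more, where 28 of the members lie, they were 51.1% and 43.9%.

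The mean deviation of the 32 genes from their own means over 8 arrays was 0.069 on pulsed replicate 2 and 0.050 on unpulsed replicate 3. It was 0.003 and 0.004 on pulsed replicates 1 and 3 and -0.031 on pulsed replicate 4, and -0.044, -0.039 and -0.012 on unpulsed replicates 1, 2 and 4. Large and small subunit genes gave nearly the same profile, with 0.074 and 0.058 on pulsed replicate 2 and 0.048 and 0.053 on unpulsed replicate 3. For all 180 probe sets with a mean of 13 or more, the 2 arrays had mean deviations of 0.022 and -0.022.

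The steadiness of the family can be read from the spread within groups. The residual SD after removing group means had a median of 0.052 over the 28 members with a mean of 13 or more, and of 0.068 over the 151 equally bright probe sets of other genes. Over the 32 members with a mean of 9 or more it ran from 0.029 for RpS26 to 0.15 for RpL7-like. Deviations from the group means were correlated across the 8 arrays between pairs of these members, with a median Pearson r of 0.51 over 496 pairs, and 84.5% of pairs above 0. The 8 members with a mean under 3, near the low end of the scale, gave nearly the same values, with a median r of 0.50 and 82.1% of 28 pairs above 0. The median was 0.47 over pairs of the 69 mitochondrial ribosomal protein genes and 0.03 over pairs of other probe sets with a mean of 9 or more. These are descriptions over 8 points that share their arrays and the authors' normalization.

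**Figure D2:**
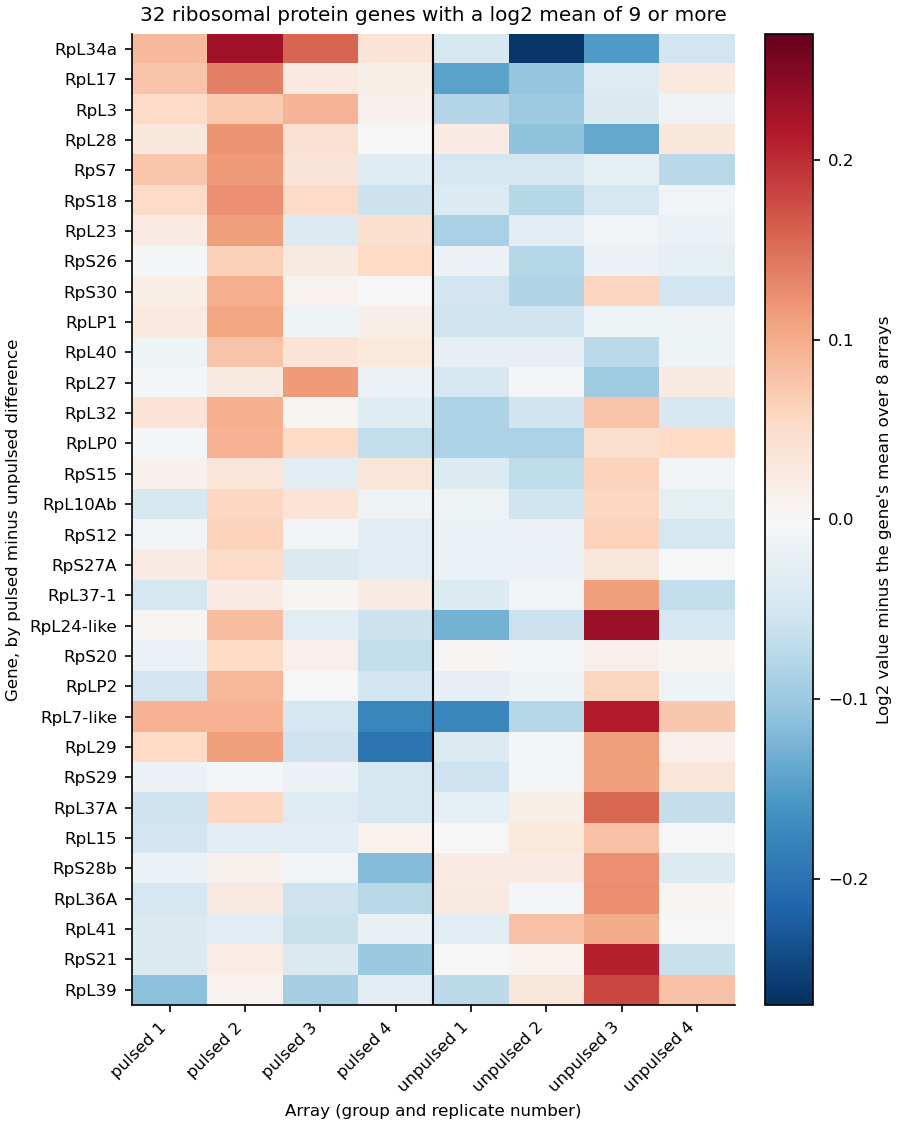
Log2 value minus the gene's own mean over 8 arrays (colour, red above and blue below) for 32 ribosomal protein genes with a mean of 9 or more (rows, ordered by pulsed minus unpulsed difference) on each array (columns, pulsed left of the black line and unpulsed right). Pulsed 2 is red for most genes in the upper part of the plot. Unpulsed 3 is red for most in the lower part and blue for several in the upper part, most of all RpL28 and RpL34a.

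The array profile was not the same for every gene. On unpulsed replicate 3 deviations from the gene means ran from -0.15 for RpL34a to 0.23 for RpL24-like, and on pulsed replicate 2 from -0.03 to 0.23. RpS21 stood at 14.19 on unpulsed replicate 3 and between 13.88 and 14.00 on the other arrays, and RpL37A at 13.81 against 13.59 to 13.71. RpL28 had its lowest value on that same array, 13.74, and its highest on pulsed replicate 2, 14.00. RpL29 had its lowest, 14.01, on pulsed replicate 4.

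RNA quality was read from control transcripts, of which 1 of 3 separated the groups. Control probe sets at the 3′ and 5′ ends of GAPDH gave a 3′ minus 5′ log2 difference of 0.81, 0.81, 0.89 and 0.93 on pulsed replicates 1 to 4 and 0.98, 1.09, 1.06 and 1.00 on the unpulsed ones (exact two-sided permutation p = 0.0286, the smallest that 70 arrangements allow). For eIF-4a it was 2.82, 2.81, 3.04 and 3.15 against 3.13, 3.42, 3.39 and 3.16 (exact permutation p = 0.0571), and for actin the group means were 1.23 and 1.35 (exact permutation p = 0.429). A larger difference means less signal from the 5′ end. Averaged over the 3 controls, the pulsed group stood at 1.68 and the unpulsed one at 1.89 (exact two-sided permutation p = 0.0571). With this average as a covariate the median over the 40 genes was 0.027, with 30 above 0, and the smallest adjusted p in limma was 0.994. The average and the group go together, so this fit cannot tell their parts apart. The part of RNA quality in the differences of single members was not tested beyond this covariate.

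**Figure D3:**
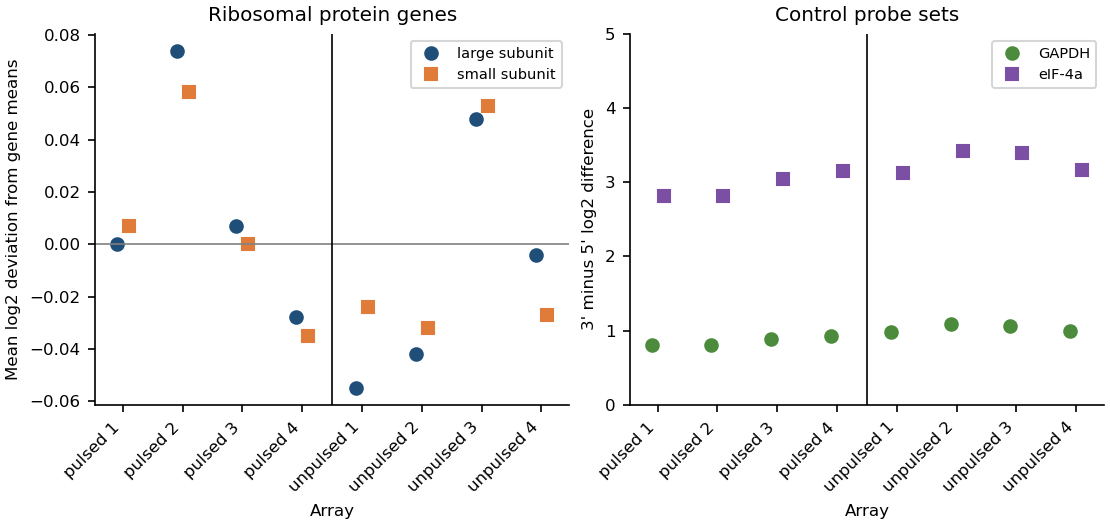
Left, the mean log2 deviation from gene means of ribosomal protein genes with a mean of 9 or more on each array, for large (circles) and small (squares) subunit genes; right, the 3′ minus 5′ log2 difference of the GAPDH (circles) and eIF-4a (squares) controls on the same arrays. Ribosomal protein genes are highest on pulsed 2 and unpulsed 3 in both subunits, and the GAPDH difference is 0.81 to 0.93 on pulsed arrays and 0.98 to 1.09 on unpulsed ones.

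The 8 members with a mean under 3 were all paralogs or like-named genes. They were RpL10Aa, RpL22-like, RpL37-2, RpS5b, RpS10a, RpS19b, RpS28a and RpS28-like, with means from 2.17 to 2.86, and none of the other members lay below 9.18. Only 3 of these 8, RpL37-2, RpS5b and RpS28-like, passed a filter at the 40th percentile of all probe sets (a mean of 2.61), and 35 of the 40 members passed it in all. Partners of 3 of them were measured with their own probe sets, RpL10Ab at a mean of 13.99, RpL37-1 at 13.64 and RpS28b at 14.62. RpL22, RpS5a, RpS10b and RpS19a were not analysed here.

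RpL22-like, the testis-enriched paralog of RpL22, ran from 2.39 to 2.43 and had the smallest spread of all members. RpS5b, a germ line paralog of RpS5a, was at 2.74, 2.80, 2.76 and 2.87 in pulsed and at 2.71, 2.75, 2.73 and 2.78 in unpulsed heads, with overlapping groups. RpL10Aa was highest on unpulsed replicate 3, at 2.37 against 2.25 to 2.29 on the others, and RpS28-like was at 2.87 there and between 2.61 and 2.69 elsewhere. RpL37-2 ran from 2.78 to 3.00, RpS10a from 2.46 to 2.59 and RpS28a from 2.36 to 2.46. Differences of these 8 genes lay between -0.077 (RpL37-2, interval -0.18 to 0.026) and 0.11 (RpS19b, interval -0.12 to 0.33), each with an interval that held 0. Pulsed replicate 4 held the highest pulsed value for 7 of the 8.

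RpS19b, a paralog of RpS19a known from the germ line, was at 2.53 on pulsed replicate 2 and between 2.10 and 2.13 on all other arrays. That excess of 0.40 over the next array was matched or passed on pulsed replicate 2 by 2.41% of all probe sets and by 0 other members. The same array held the testis and accessory gland transcripts, with betaTub85D, the testis tubulin, at 6.22 against 2.30 to 2.34 elsewhere and SP, the sex peptide gene, at 8.16 against 2.19 to 2.21. Of 24 germ line and ovary genes 1, exu, stood more than 1 log2 unit above every other array there, at 4.68 against 2.71 to 2.83, and the mean of the list was 3.10 there and 3.05 to 3.10 elsewhere. RpS10a (2.51), RpS28a (2.40) and RpL22-like (2.40) lay within their range on the other arrays. Without pulsed replicate 2 the RpS19b difference was 0.0051. The part of testis RNA in the RpS19b value was not tested.

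**Figure D4:**
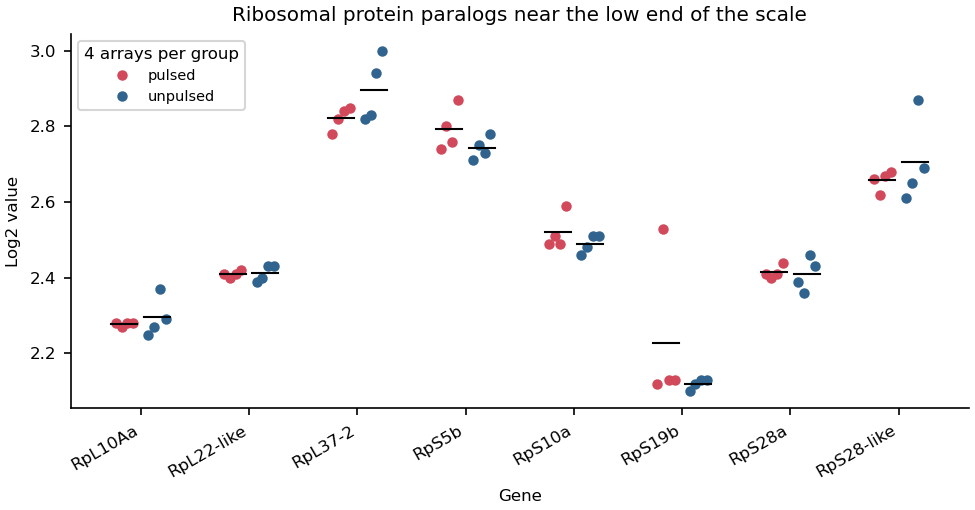
Log2 values of 8 paralog or like-named ribosomal protein genes on 4 pulsed (red) and 4 unpulsed (blue) arrays, with the group mean as a black line. RpS19b has 1 pulsed array at 2.53 and the other 7 arrays at 2.10 to 2.13, while the groups of every gene overlap.

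RpL24-like and RpL7-like were measured well above that floor. RpL24-like, whose yeast counterpart acts in assembly of the large subunit, was at 11.45, 11.53, 11.42 and 11.39 in pulsed and at 11.32, 11.39, 11.68 and 11.40 in unpulsed heads. The group means were both 11.45 and the interval of the difference was wide, -0.19 to 0.19 with unpulsed replicate 3 as the highest array. RpL7-like was at 9.27, 9.27, 9.13 and 9.0 against 9.0, 9.10, 9.39 and 9.25, a difference of -0.016 (-0.25 to 0.22). Of the 40 probe sets, 14 are of the kind marked as holding probes shared by several transcripts, those of RpL3, RpL17 and RpS26 among them, so signal from near copies cannot be told apart there.

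Other parts of the translation machinery were read in the same fit, from lists written with earlier results of these data known, and 0 genes of any list passed limma's test. Among 23 initiation factors, 15 lay above 0 with a median of 0.044. eIF2beta, a subunit of the factor that delivers the initiator tRNA, had the smallest p of the list, at 10.19, 10.24, 10.16 and 10.24 in pulsed and 10.12, 10.01, 10.02 and 10.05 in unpulsed heads, a difference of 0.16 (0.086 to 0.23, limma adjusted p = 0.566). eIF3b was at 0.17 and eIF3m at 0.21, or 0.021 and 0.11 with the RNA quality covariate. Of 9 elongation and termination genes 5 lay above 0 (median 0.013). eEF1gamma was at 13.26, 13.35, 13.36 and 13.26 against 13.04, 13.04, 13.01 and 13.09 (difference 0.26, limma adjusted p = 0.188). eEF5, which helps the ribosome through proline stretches, was at -0.074 with all 4 pulsed arrays below the unpulsed ones.

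Genes of ribosome assembly and the nucleolus had 13 of 23 above 0 and a median of 0.0079, close to that of the ribosomal protein genes. Non1, a nucleolar GTPase, was at 0.16 (0.014 to 0.31), bys at 0.23 (-0.020 to 0.48) and RIOK1 at 0.16 (-0.033 to 0.36). RNA polymerase I and its factors had 2 of 7 above 0 and a median of -0.040, with Tif-IA, which recruits the polymerase, at -0.19 (-0.42 to 0.052), Polr1E at -0.17 and Polr1H at -0.090. With the RNA quality covariate Non1 was at 0.092, RIOK1 at 0.080 and Tif-IA at -0.034. The 69 mitochondrial ribosomal protein genes had 37 above 0 and a median of 0.012. mRpS9 (0.23) and mRpL13 (0.22) did not overlap between groups, with pulsed above, and mRpL32 was at -0.20. With the RNA quality covariate they were at 0.0225, 0.0818 and -0.0225.

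Genes of growth control lay mostly below 0, in a list that mixes genes promoting growth, such as S6k, with genes restraining it, such as foxo. Their common sign therefore gives no direction for ribosome production. Of 16 genes of the Tor, Myc and foxo circuits and of stress kinases 2 were above 0, with a median of -0.11. S6k, the kinase of ribosomal protein S6, was at 9.52, 9.37, 9.54 and 9.41 in pulsed and at 9.54, 9.66, 9.63 and 9.59 in unpulsed heads, a difference of -0.14 (-0.26 to -0.033, limma unadjusted p = 0.0181, adjusted p = 0.949). foxo, a transcription factor of low insulin signalling, was at -0.39 (-0.74 to -0.048, limma adjusted p = 0.971), and raptor, a partner of Tor, at 0.18 (0.025 to 0.33) from a dim probe set with a mean of 3.31. Tor, Thor, Larp and Myc were not analysed here. Factors bound at ribosomal protein gene promoters had 1 of 5 above 0 (median -0.14), with M1BP at 0.16 (-0.018 to 0.34), Trl at -0.14 (-0.28 to 0.002) and Irbp18 at -0.21 (-0.47 to 0.046). With the RNA quality covariate foxo was at -0.16, M1BP at -0.062, Trl at 0.0090 and Irbp18 at 0.0096.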

How the data were processed

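Per the labels' protocols, RNA from heads was isolated with Trizol, and an Affymetrix IVT kit added the biotin label before hybridisation to 8 arrays. The authors deposited 18952 probe sets as log2 values in 1 table. Their summarisation and normalization are not given in the sources used here, and the scale was inferred from a maximum of 15.51 on a 16-bit scanner. Removing 183 control probe sets left 18769.

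Gene symbols came from the platform annotation, updated by gene number through RefSeq (assembly Release 6 plus ISO1 MT, names only). Here 13647 probe sets had 1 symbol, 402 several and 4903 none listed. The groups were fitted with limma 3.58.1 in R 4.3.3 (lmFit, eBayes, two-sided), with no covariate, Benjamini-Hochberg adjustment over all 18769 probe sets and a threshold of 0.05. The number of arrays limits the precision, and the 95% intervals use the moderated SE without adjustment.

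Members and lists were chosen with earlier results of these data known. Of 102 list genes 83 were measured, beside the mitochondrial ribosomal protein genes, taken by symbol. Named were the 6 members with the highest and 6 with the lowest moderated statistic, paralogs, those with the largest or smallest spread, fixed names, and up to 3 genes per list by unadjusted p; other members, the reference transcript among them, were singled out after their values were seen, as was the split at means of 9 and 3. Motif, protein and other sequence features were not analysed here.

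Alternatives were each array left out, array weights, a block for replicate number, quantile normalization, arrays centred on their median, a filter at the 40th percentile, a pseudocount of 16, a trended and robust spread, covariates for RNA quality and yolk transcripts, averaging over each gene's probe sets, and other thresholds. Same-numbered arrays deviated from their group means with correlations from -0.07 to 0.078, so the numbers were not taken as pairs. No arrays held identical values: the smallest SD of a difference between 2 arrays was 0.166. On simulated data (10 simulations, 18769 probe sets, 200 changed) limma recovered 51.5% of log2 changes of 0.5 and 84.2% of those of 1, and 5.89% of calls were unchanged probe sets. The simulated noise was normal and independent between probe sets, and changes were placed only in those past the 40th percentile filter. Deviations shared between probe sets were not simulated, so these shares need not hold for the real arrays.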

Additional observations from a re-analysis of the deposited data

Results flagged for a closer look

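RpS19b was at 2.53 on pulsed replicate 2, with its nearest pulsed array at 2.13 and a range of 0.41 in the group, so that 1 array made up almost the whole spread. RpLP2, the stalk protein gene, was at 14.14 on unpulsed replicate 3, with the next array at 14.07 and a range of 0.08. Each of the 80 gene and group combinations was checked for such a distant array, 2 were found, and chance gives about 1 in 20.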

How the results depend on the processing

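Over 18 refits the count of ribosomal protein genes passing an adjusted p of 0.05 was 0 except with array weights, which called 12 higher and 4 lower among 2936 probe sets in all, and rested mainly on unpulsed replicate 2 (weight 10.15) and pulsed replicate 3 (6.813); the cause was not tested. Of all probe sets, 1 passed after median centring, 1 after filtering dim ones and 1 with a trended and robust spread, while 2 did at an adjusted p under 0.1, 902 at an unadjusted p under 0.05 and 219 at 1.5-fold. With each array left out in turn both counts stayed at 0. At an unadjusted p under 0.05, 7 members were higher with all arrays, from 0 (RNA quality covariate) to 17 (array weights) over the refits. With array weights the higher share over all probe sets rose too, from 2.40% without weights to more than the 13.2% on the lower side. There were 3 members higher under median centring, the filter or the trended spread, against 1.84%, 3.53% and 1.82% of all probe sets in those fits. Lower members went from 0 to 6 (array weights, where 13.2% of all probe sets were lower). The replicate block gave 4 higher (2.45% of all probe sets) and 0 lower (2.94%) and called 0 probe sets. With arrays left out the median over members was lowest, 0.0013, when unpulsed replicate 1 was missing and highest, 0.0387, when it was unpulsed replicate 3. It was -0.0067 with median-centred arrays (19 of 40 above 0) and -0.0003 with quantile normalization (20 of 40), so the side of 0 on which the family lies depended on the scaling. Members with a mean of 9 or more had a median of 0.0139.

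Of 29 named members 14 kept their sign in all refits, and none of the 59 sign changes among 50 named genes had an adjusted p under 0.05 in either fit. Sign changes larger than the replicate spread came with the RNA quality covariate for RpL10Aa (0.0264), RpL15 (0.0068), RpL37A (0.0460), RpL41 (0.0119), RpS28-like (0.0620), bys (-0.0729), M1BP (-0.0624), Trl (0.0090) and Irbp18 (0.0096), and with array weights for RpL22-like (0.0131) and Polr1E (0.11). Array weights called 31 of the 50. Near the low end of the scale, where 8 members lie, no detection call separates signal from background.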

Other observations

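The 3 probe sets for 18S ribosomal RNA, which belong to no comparison above, varied widely between arrays. The middle one was at 7.19, 7.21, 9.78 and 9.07 on pulsed replicates 1 to 4 and at 9.02, 8.99, 9.50 and 7.78 on the unpulsed ones (exact two-sided permutation p = 0.571). The 3′ one was highest on unpulsed replicate 3 (8.52) and pulsed replicate 3 (8.11), against 6.61 to 7.24 on the others. Pulsed replicate 2, highest for most ribosomal protein genes, had the lowest 3′ value, and unpulsed replicate 3 the highest.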
